A study of Mus musculus with 15 samples.

Results

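The collagen gene family was followed in RNA from mouse colon. Its members were all rows of the count table with a gene name made of Col, a number, the letter a and a number, and 44 of the 56859 genes in the table met this rule. The colons came from male C57BL/6J mice aged 6 to 10 weeks in a model of colitis-associated cancer, which joins a carcinogen that acts on the colon, azoxymethane (AOM), with dextran sulfate sodium (DSS), a drinking-water agent that injures the epithelium. The protocol gives AOM at 10 mg/kg on day 0 and 3 courses of 2.5% DSS (days 7 to 11, days 28 to 32 and days 49 to 53), with daily injections on the DSS days of either APX3330 at 25 mg/kg, an inhibitor of the redox function of APE1/Ref-1 also named E3330, or saline. The 15 libraries form 5 groups of 3, which are AOM/DSS with APX3330, AOM/DSS with saline at day 27, day 48 and day 100 (saline D27, D48 and D100), and Control. Control mice are called wild type in the labels, with no treatment named, while the protocol shared by all samples says that every mouse received AOM, so what the controls received is not settled. The APX3330 libraries carry no day, and the sample titles name cycle 1 for day 48 and cycle 2 for day 100, which the DSS days above do not explain. A difference from a saline day can therefore also be a difference in day, and APX3330 was set against each saline day. The age given above cannot be that of the day 100 mice at collection, so age can also differ between groups. Whether each library is a different animal is not stated, so the p-values speak of the spread among these libraries, which may be technical.

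Collagens are the main structural proteins of the extracellular matrix, built from alpha chains that wind around each other into a helix. The fibrillar types I, III and V form the fibrils of the submucosa and of scar tissue, type IV forms the network of basement membranes under the epithelium and around vessels and muscle cells, and type VI forms beaded filaments between cells and fibrils. Other types sit on the surface of fibrils, anchor stratified epithelium or span the cell membrane. In the gut wall most of them are made by fibroblasts, smooth muscle cells and endothelial cells.

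Total counts per library ranged from 13548661 to 17919613, and 18038 genes passed the filter on low counts. The 10 colon epithelium markers examined were all detected. Transcripts of squamous epithelium stood out in Control replicates 1 and 3 and saline D100 replicate 1, with summed marker levels of 1259, 589 and 864 CPM (counts relative to library size, with TMM scaling between libraries). The sum was 3.92 to 7.96 CPM in 11 of the other libraries and stood higher only in saline D48 replicate 2, at 100 CPM. That library was kept in the fits without the squamous libraries. Exocrine pancreas transcripts stood out in saline D48 replicates 2 and 3, at 38220 and 9193 CPM, against at most 10.9 CPM elsewhere. For collagens, results that rest on these libraries are given below with and without them. Results of other genes and of marker lists are given with all libraries kept. Without the squamous or pancreas libraries, Control or saline D48 is a single library, whose spread is taken to equal that of the other groups.

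The promoters of 5 members that carry the main patterns are shown first. They are Col1a2 and Col3a1, which code for the most abundant fibrillar chains, the neighbours Col4a1 and Col4a2, which code for the main basement membrane chains, and Col6a5, which had the largest called rise of the tested members against Control. Each window covers 250 bases before the start site and 50 after it, from RefSeq on GRCm38.p6, read on the gene's own strand. Capitals mark the letters CCAAT (the CCAAT box), GGGCGG (the GC box) and TATAAA (the TATA box), searched on both strands, so that ATTGG and CCGCCC are also marked, and neighbouring matches of different motifs may share letters.
Col1a2, chr6:4505368-4505667, plus strand: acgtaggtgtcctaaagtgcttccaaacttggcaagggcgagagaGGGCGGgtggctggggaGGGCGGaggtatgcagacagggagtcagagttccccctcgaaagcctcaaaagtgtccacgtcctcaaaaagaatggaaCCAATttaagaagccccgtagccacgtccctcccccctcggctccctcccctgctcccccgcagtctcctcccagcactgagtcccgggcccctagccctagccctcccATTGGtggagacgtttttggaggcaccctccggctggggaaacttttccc
Col3a1, chr1:45311288-45311587, plus strand: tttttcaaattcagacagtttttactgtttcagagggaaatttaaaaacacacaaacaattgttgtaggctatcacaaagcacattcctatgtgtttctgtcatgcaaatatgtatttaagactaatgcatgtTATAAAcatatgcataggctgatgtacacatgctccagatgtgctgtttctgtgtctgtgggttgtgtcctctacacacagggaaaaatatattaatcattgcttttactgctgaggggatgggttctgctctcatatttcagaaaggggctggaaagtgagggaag
Col4a1, chr8:11312777-11313076, minus strand: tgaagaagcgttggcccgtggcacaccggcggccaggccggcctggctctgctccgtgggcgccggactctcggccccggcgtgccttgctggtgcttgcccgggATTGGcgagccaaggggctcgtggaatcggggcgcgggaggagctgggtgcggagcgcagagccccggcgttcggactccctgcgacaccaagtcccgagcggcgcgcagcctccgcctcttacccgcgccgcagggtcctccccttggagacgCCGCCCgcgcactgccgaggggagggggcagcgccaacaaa
Col4a2, chr8:11312555-11312854, plus strand: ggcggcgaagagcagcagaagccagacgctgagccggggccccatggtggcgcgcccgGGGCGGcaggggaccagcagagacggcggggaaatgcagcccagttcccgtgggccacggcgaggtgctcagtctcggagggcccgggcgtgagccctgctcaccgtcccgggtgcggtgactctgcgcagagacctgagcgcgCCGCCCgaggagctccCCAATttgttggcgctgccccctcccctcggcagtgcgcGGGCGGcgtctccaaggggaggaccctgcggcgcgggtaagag
Col6a5, chr9:105960594-105960893, minus strand: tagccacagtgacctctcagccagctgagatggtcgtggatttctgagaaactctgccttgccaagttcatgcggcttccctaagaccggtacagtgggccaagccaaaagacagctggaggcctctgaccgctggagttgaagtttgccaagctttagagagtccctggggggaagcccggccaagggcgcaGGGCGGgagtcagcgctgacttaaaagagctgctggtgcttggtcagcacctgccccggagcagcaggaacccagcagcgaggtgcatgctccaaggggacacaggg
A window was found for 35 of the 44 genes, with 38 windows in all, and Col1a1 has no entry. The CCAAT box was in 13 of the 38 windows (34.2%, against 37.4% of all 32851 windows), the GC box in 23 (60.5%, against 35.7%) and the TATA box in 5 (13.2%, against 13.6%). Col3a1 has a TATA box match and no GC box, while Col1a2, Col4a1 and Col4a2 each have CCAAT and GC box matches, and Col6a5 has 1 GC box.

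Col4a1 and Col4a2 lie head to head on chromosome 8 and their annotated spans overlap by 22 bases at the start sites, so their windows above share sequence, read on opposite strands. Col4a1 spans chr8:11198423-11312826 on the minus strand and Col4a2 spans chr8:11312805-11449287 on the plus strand (GENCODE M21, GRCm38). The same arrangement holds for Col4a4 and Col4a3 on chromosome 1, 71 bases apart, and for Col4a6 and Col4a5 on chromosome X, 1308 bases apart. Col3a1 (chr1:45311538-45349706) and Col5a2 (chr1:45374321-45503282) face each other tail to tail on chromosome 1, and Col6a4, Col6a5 and Col6a6 stand in a row on chromosome 9. Exons of Col9a3 share 6.07% of their bases with Tcfl5, and those of Col4a3 share 5.65% with C430014B12Rik, both on opposite strands. Whether the counting used strand is not given in the sources used here, so the values of Col9a3 and Col4a3 are uncertain.

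Collagen transcripts made up 0.361, 0.301 and 0.340 % in APX3330, 0.449, 0.383 and 0.427 in saline D27, 0.661, 0.595 and 0.577 in saline D48 and 0.351, 0.350 and 0.350 in saline D100, against 0.502, 0.559 and 0.518 in Control libraries, as shares of all counts of a library. Every saline D48 library lay above every other library, and every APX3330 and saline D100 library lay below every Control library. The sum of all 44 members came to 3659, 3082 and 3423 CPM in APX3330, 4488, 3904 and 4229 in saline D27, 6533, 6279 and 5510 in saline D48 and 3532, 3555 and 3642 in saline D100, against 4839, 5530 and 5003 in Control libraries. In this sum saline D48 replicate 3 lay within the Control range, the other saline D48 libraries were above it, and APX3330 and saline D100 were again the lowest. In bulk RNA, fewer cells of a type and less RNA per cell cannot be told apart.

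Of 1024648 collagen counts in the 15 libraries, Col3a1 took 25.3%, Col1a2 11.4%, Col1a1 9.33% and Col4a1 8.75%, and the 10 most abundant members took 86.1%. Per length of the longest coding transcript, Col3a1 was also the highest member in every group. Its level was 149.9 ± 12.7 CPM per kilobase in APX3330, 182 ± 20.1 in saline D27, 275 ± 29.2 in saline D48 and 159 ± 6.39 in saline D100, against 257 ± 33.6 in Control (SD, n = 3 each). Col1a2, Col6a1, Col1a1, Col6a2, Col4a1 and Col4a2 followed in the mean over all libraries, from 95.2 CPM per kilobase for Col1a2 to 44.9 for Col4a2. At the low end, Col6a6, Col26a1, Col9a1, Col2a1, Col19a1 and Col10a1 held between 8 and 71 counts each over all libraries and were not tested. They include the cartilage collagens of types II and X.

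**Figure D1:**
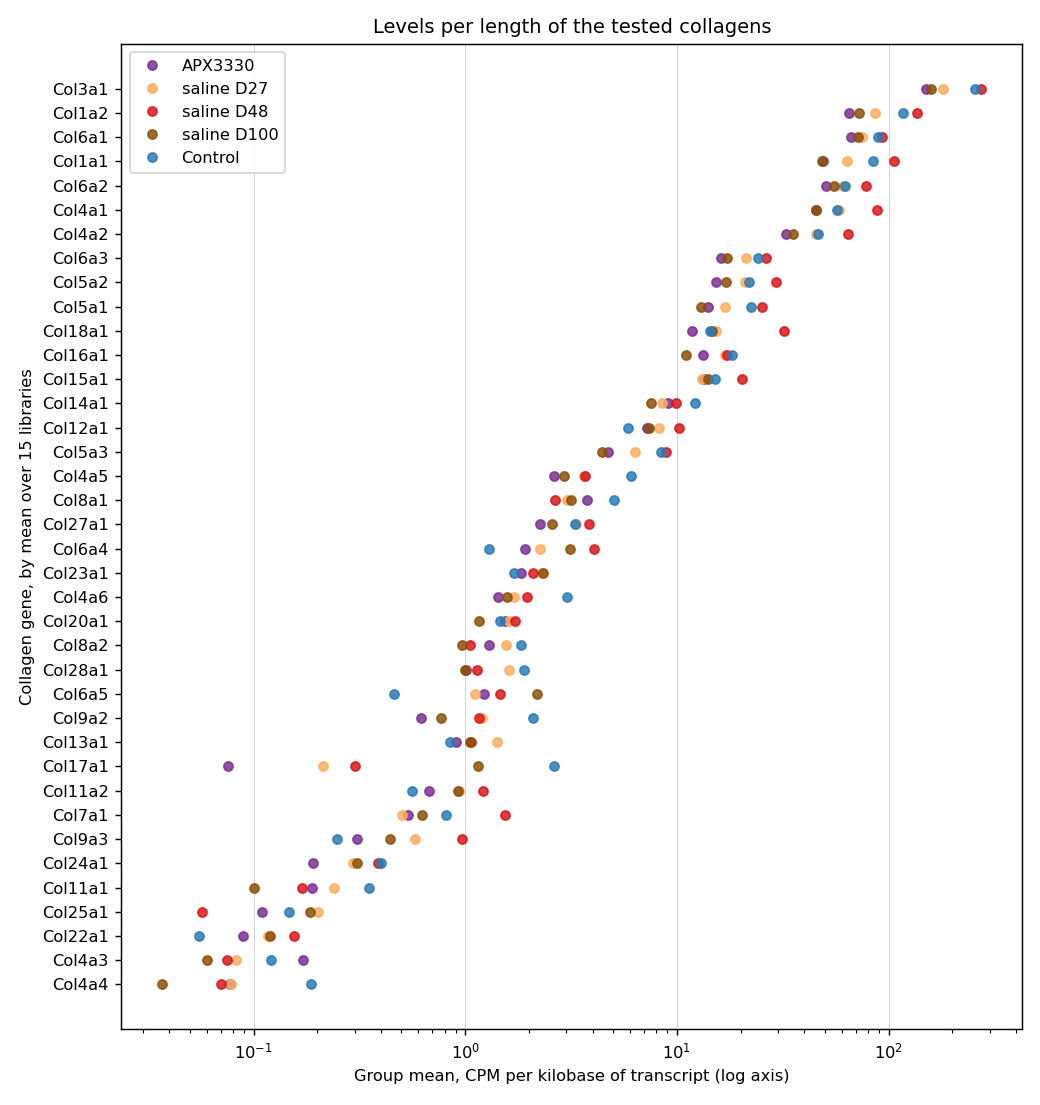
Mean level of each of the 38 tested collagens in the 5 groups, as CPM per kilobase of the longest coding transcript on a log axis, with genes ordered by their mean over 15 libraries. Each point is the mean of 3 libraries. Col3a1 stands at the top, and saline D48 (red) is the rightmost point for most of the abundant members.

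Over the 5 groups, 30 of the 38 tested members differed (edgeR F test, adjusted p below 0.05), against 37.3% of all genes tested. Of the 38, 21 had their highest group mean at saline D48, against 23.4% of all genes tested, and 12 had it in Control, against 27%. The lowest group mean was in APX3330 for 14 members (18% of all genes) and in saline D100 for 12 (18.3% of all genes). Below, a call is an edgeR adjusted p below 0.05 over all genes tested, and a call quoted without remark also held in each of the 15 fits that left out 1 library. It need not hold without all squamous or all pancreas libraries. A member's call against Control was not made without the squamous libraries unless the lists below name it for that group. For saline D48 the same goes for the pancreas libraries. Absence of overlap between groups, quoted for single genes below, is common with 3 libraries each. Against Control it held for 5851 of the 18038 genes tested with APX3330 and 6893 at saline D27. At saline D48 it held for 7670 and at saline D100 for 7194.

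Against Control, more members were called lower than higher at day 27, at day 100 and with APX3330, and more were called higher than lower at day 48. At saline D27, 3 of 38 members were called higher (background 10.2% of all genes tested) and 8 lower (background 9.36%), with a median log2 fold change of -0.22 over the members. The 3 higher calls were a smaller share than the background. At saline D48, 12 were higher (31.6%, background 14.3%) and 5 lower (13.2%, background 13%), with a median of 0.20. The 5 lower calls are a share at the background. At saline D100, 2 were higher (background 11.4%) and 18 lower (47.4%, background 10.5%), with a median of -0.39. With APX3330, 1 was higher (background 7.16%) and 17 lower (44.7%, background 8.18%), with a median of -0.48. These 4 comparisons share the Control libraries. The median over all genes tested lay between -0.0102 and 0.0153 in all 10 comparisons.

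These counts depended on single libraries at day 27, where the 11 calls became 4 without saline D27 replicate 2 and 7 without saline D27 replicate 1 or Control replicate 2. With the 3 libraries that held squamous transcripts removed, so that 1 Control library remained, the calls against Control were 8 for APX3330, 1 for saline D27, 3 for saline D48 and 11 for saline D100. The 8 were Col1a1, Col1a2, Col3a1, Col4a5, Col5a1, Col5a2, Col5a3 and Col6a3, all lower with APX3330. The single call at saline D27 was Col3a1, and the 3 at saline D48 were Col6a4, Col6a5 and Col18a1. The 11 at saline D100 were Col1a1, Col1a2, Col3a1, Col4a5, Col5a1, Col5a3, Col11a1, Col14a1 and Col16a1, which were lower, and Col6a4 and Col6a5, which were higher. Without the 2 libraries holding pancreas transcripts, saline D48 had 7 calls against Control, which were Col4a1, Col4a2, Col6a4, Col6a5, Col12a1, Col15a1 and Col18a1.

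Between saline days, most members were not called. Saline D48 against saline D27 gave 10 higher members (26.3%, background 0.854%) and 0 lower (background 0.499%), with a median log2 fold change of 0.34. At an unadjusted p below 0.05, 15 were higher and 3 lower in edgeR, where 14.2% of all genes had such a p in either direction. DESeq2 called 12 higher and 1 lower (706 of all genes called), and limma-voom 11 higher and 0 lower (417 of all genes called). The 10 calls became 3 without saline D27 replicate 2, 5 without saline D27 replicate 3, 6 without saline D48 replicate 1 or 2, and 3 without both libraries holding pancreas transcripts, Col1a1, Col1a2 and Col18a1. Saline D100 against saline D48 gave 1 higher member (background 7.2%) and 16 lower (42.1%, background 6.4%), with a median of -0.52. Saline D100 against saline D27 gave 1 higher (background 1.63%) and 3 lower (background 1.45%), with a median of -0.27. These 4 calls became 0 without saline D27 replicate 1 or saline D100 replicate 3. They became 1 without saline D27 replicate 2, saline D100 replicate 1 or saline D100 replicate 2, and 2 without saline D27 replicate 3. With all libraries kept, 15 members had an unadjusted p below 0.05 in edgeR (background 20.5% of all genes). DESeq2 called 7 members (1271 of all genes called) and limma-voom 10 (1894 of all genes called).

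Set against the saline days, the APX3330 libraries held less collagen RNA than saline D48 and saline D27, and no difference from saline D100 was called. Against saline D48, 0 members were higher (background 9.41%) and 19 lower (50% of members, background 10.3%), with a median log2 fold change of -0.66. Against saline D27, 0 were higher (background 4.71%) and 10 lower (26.3%, background 4.37%), with a median of -0.35. Without both libraries holding pancreas transcripts, 18 were called lower against saline D48, with Col7a1, Col9a3 and Col12a1 lost from the 19 and Col4a5 and Col4a6 added. In both comparisons edgeR gave 0 higher members at an unadjusted p below 0.05, and DESeq2 and limma-voom called 0 higher. Over all genes, 33.3% had such an edgeR p in either direction against saline D48 and 27.1% against saline D27. The 10 calls against saline D27 became 1 without saline D27 replicate 1 or APX3330 replicate 2, 2 without saline D27 replicate 2 or APX3330 replicate 3, and 6 without saline D27 replicate 3, saline D100 replicate 2 or saline D100 replicate 3. Without the 3 libraries holding squamous transcripts they became 3, Col4a2, Col5a2 and Col27a1. Against saline D100, edgeR called 0 higher (background 0.305%) and 0 lower (background 0.2%), with a median of -0.12. In that comparison 7 of 38 members had an unadjusted p below 0.05 in edgeR, against a background of 13.2% of all genes. Of the 7, Col4a3, Col11a1 and Col16a1 were higher and Col6a4, Col6a5, Col17a1 and Col18a1 lower. DESeq2 called 2 of the 7 lower there, Col6a4 and Col6a5 (440 of all genes called), and limma-voom called 0 (77 of all genes called).

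**Figure D2:**
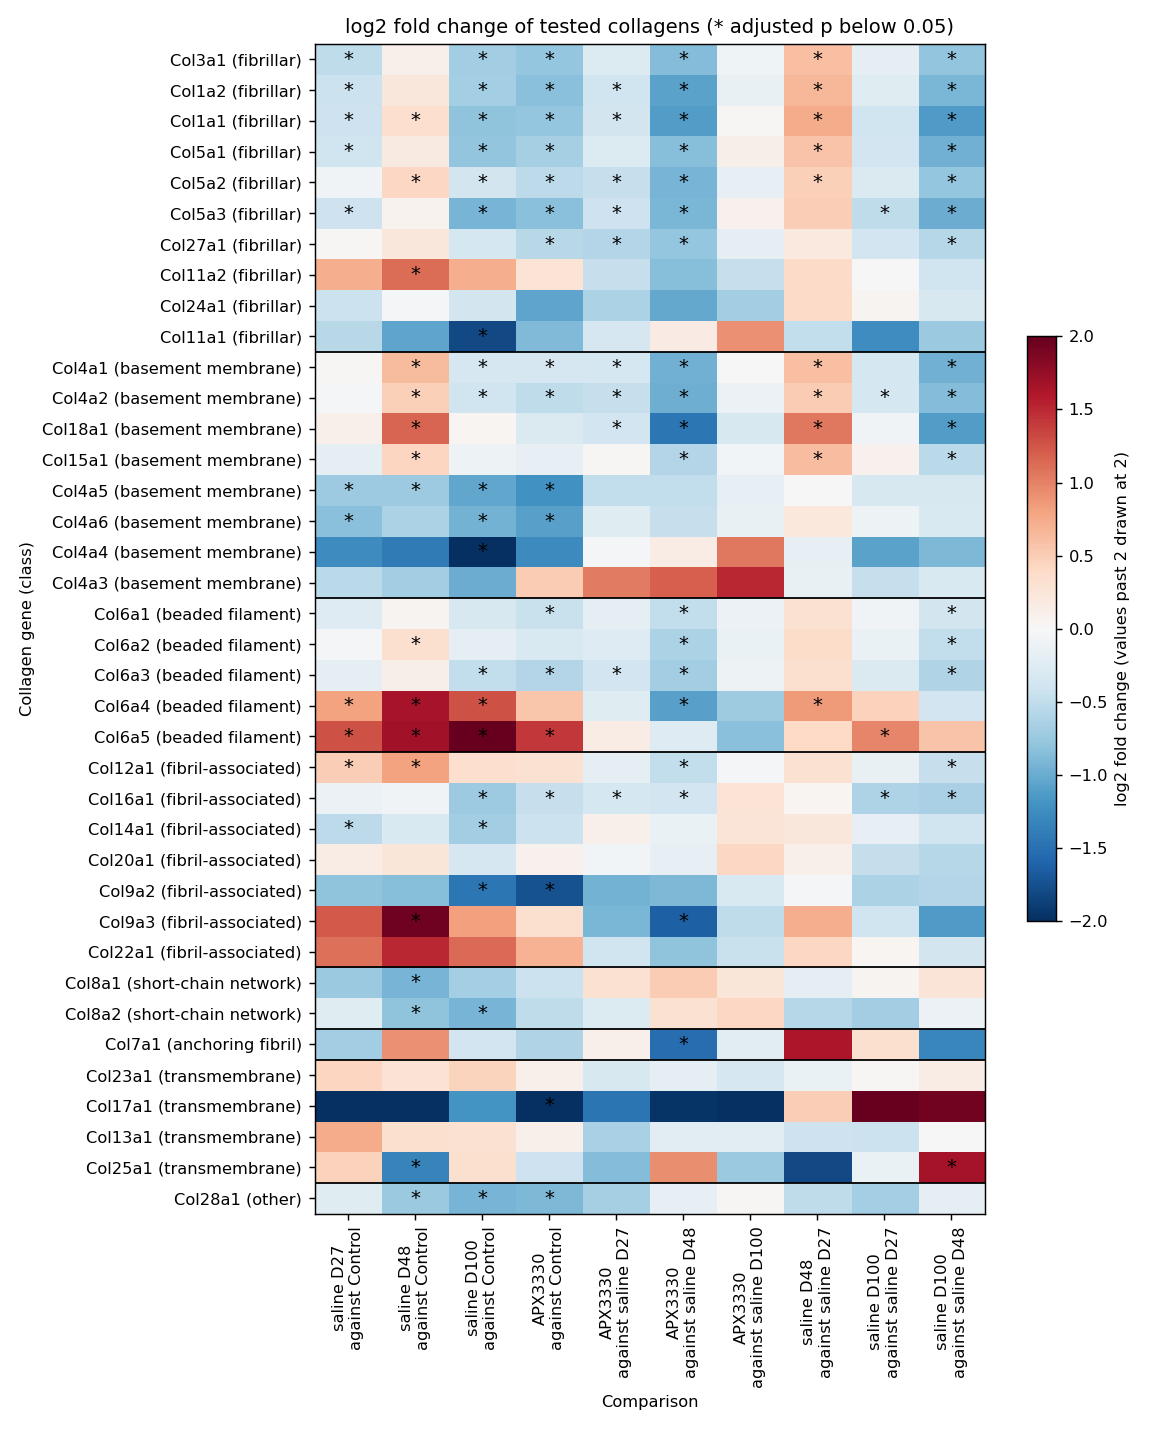
Fold change on the log2 scale (colour, limited to 2 either way) of the 38 tested collagens, in rows by class, for the 10 comparisons in columns, with a star where the edgeR adjusted p is below 0.05. The columns for APX3330 against saline D48 and saline D100 against saline D48 are mostly blue, with 19 and 16 lower calls, and the column for APX3330 against saline D100 has no star.

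Of the 10 fibrillar collagens tested, 3 were higher at saline D48 than in Control (background 14.3%). Against Control, 7 were lower with APX3330 (background 8.18%), 7 at saline D100 (background 10.5%) and 5 at saline D27 (background 9.36%). APX3330 against saline D48 and saline D100 against saline D48 each gave 7 lower (backgrounds 10.3% and 6.4%).

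Col3a1, the chain of type III collagen, measured 915, 788 and 798 CPM in APX3330, 1108, 888 and 1034 in saline D27, 1663, 1575 and 1348 in saline D48 and 883, 851 and 922 in saline D100, against 1245, 1620 and 1428 in Control libraries. The APX3330 and saline D100 libraries were low and did not overlap with Control, while saline D48 did. Col3a1 fell with APX3330 against saline D48 (log2 fold change -0.87, SE 0.12, edgeR adjusted p = 0.00032) and against Control (-0.78, SE 0.12, edgeR adjusted p = 0.000638). It was also lower at saline D100 than in Control (-0.69, SE 0.12, edgeR adjusted p = 0.000773).

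Col1a1 and Col1a2 code for both chains of type I collagen, the main protein of fibrous tissue. Col1a1 measured 323, 249 and 305 CPM in APX3330, 394, 361 and 377 in saline D27, 679, 632 and 581 in saline D48 and 286, 277 and 298 in saline D100, against 461, 554 and 488 in Control libraries. Saline D48 libraries were all above Control, and APX3330, saline D27 and saline D100 libraries were all below it. It was lower than at saline D48 both with APX3330 (log2 fold change -1.11, SE 0.11, edgeR adjusted p = 3.36e-05) and at saline D100 (-1.14, SE 0.11, edgeR adjusted p = 7.58e-05). Between saline D48 and saline D27 it was higher (log2 fold change 0.74, SE 0.11, edgeR adjusted p = 0.00451). It also rose at saline D48 against Control (log2 fold change 0.33, SE 0.11, edgeR adjusted p = 0.0295, call lost without saline D48 replicate 1 or 2 or Control replicate 1 or 3, at 0.25 to 0.33).

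Col1a2 measured 391, 316 and 337 CPM in APX3330, 489, 434 and 458 in saline D27, 777, 741 and 666 in saline D48 and 398, 379.5 and 384 in saline D100, against 588, 667 and 614 in Control libraries. APX3330 libraries were below all saline D27 libraries and all Control libraries, and overlapped with saline D100. Col1a2 was lower with APX3330 than at saline D48 (log2 fold change -1.06, SE 0.10, edgeR adjusted p = 2.7e-05) and than in Control (-0.84, SE 0.10, edgeR adjusted p = 0.000113). Per length, the Col1a1 level relative to Col1a2 was 0.757 ± 0.0534 in APX3330, 0.740 ± 0.0126 in saline D27, 0.781 ± 0.0109 in saline D48 and 0.668 ± 0.0263 in saline D100, against 0.724 ± 0.0217 in Control (SD, n = 3 each). The ratio stayed below 1 in all 15 libraries, with saline D100 lowest. Its size depends on the lengths used, which were 5930 bases for Col1a1 and 5348 for Col1a2. All annotated exons cover 6563 and 12426 bases, and the annotation behind the counts is not given.

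**Figure D3:**
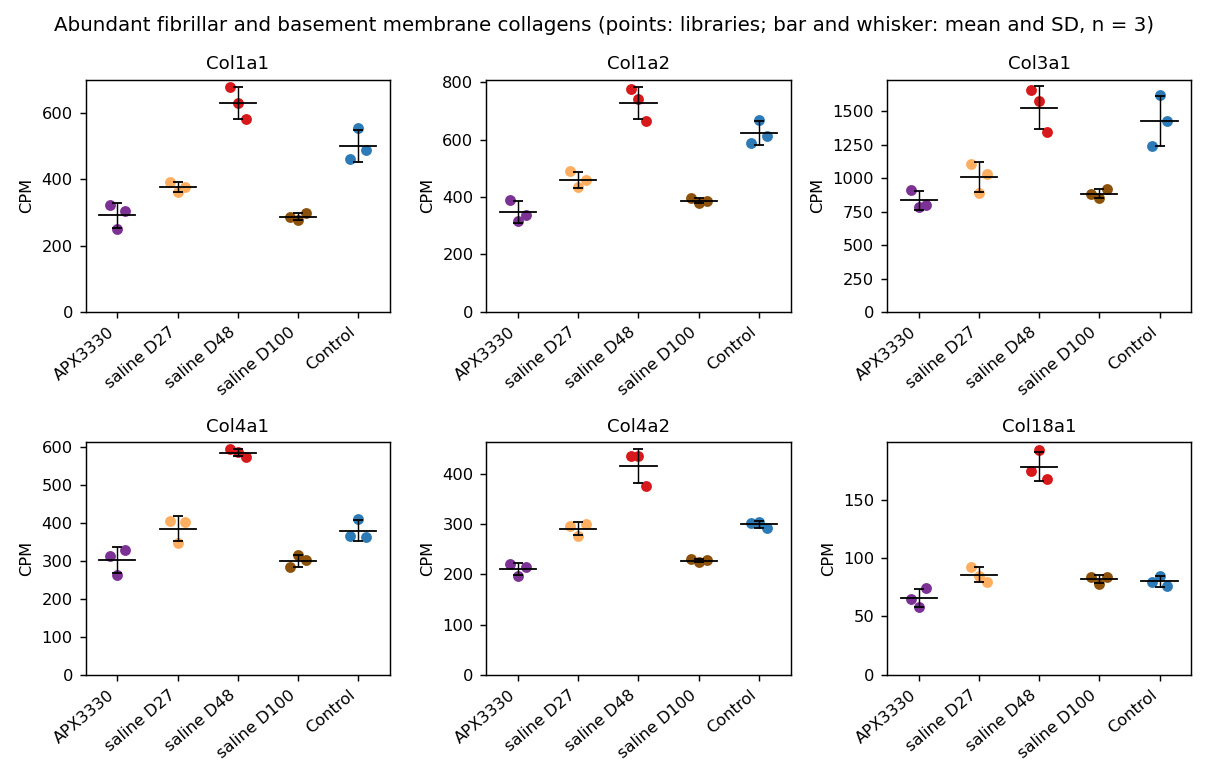
Level in CPM (vertical axis, from 0) of Col1a1, Col1a2, Col3a1, Col4a1, Col4a2 and Col18a1 in each of the 15 libraries, by group. Points are libraries, bars the mean and whiskers the SD of 3. Saline D48 is highest in each panel, and the saline D48 level of Col18a1 (169 to 193 CPM) lies apart from all other libraries.

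Type V collagen joins type I fibrils and limits their width. Its chain gene Col5a1 measured 126, 101 and 126 CPM in APX3330, 142, 133 and 152 in saline D27, 241, 209.6 and 183 in saline D48 and 117, 103 and 107 in saline D100, against 174, 201 and 188 in Control libraries. Col5a2 measured 117, 90.0 and 96.2 CPM in APX3330, 145, 128 and 145 in saline D27, 194, 213 and 175 in saline D48 and 114, 111 and 115 in saline D100, against 135, 162 and 141 in Control libraries. Both were low in APX3330 and saline D100, and APX3330 libraries did not overlap with saline D48 or Control. APX3330 against saline D48 gave -0.84, SE 0.11, edgeR adjusted p = 0.00032 for Col5a1 and -0.94, SE 0.11, edgeR adjusted p = 0.000106 for Col5a2 on the log2 scale. Col5a2, unlike Col5a1, was called higher at saline D48 than in Control (log2 fold change 0.41, SE 0.11, edgeR adjusted p = 0.0115), and the Col5a1 value there was 0.17, SE 0.11, edgeR adjusted p = 0.283, not called. The difference between both genes was not tested.

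Col5a3, a further type V chain, measured 29.2, 28.7 and 28.5 CPM in APX3330, 39.1, 41.0 and 35.7 in saline D27, 59.7, 58.4 and 44.8 in saline D48 and 25.5, 28.5 and 27.4 in saline D100, against 55.3, 56.8 and 42.6 in Control libraries. The APX3330 and saline D100 libraries formed a low band below all others. It was lower at saline D100 than in Control (log2 fold change -0.93, SE 0.13, edgeR adjusted p = 0.000145) and with APX3330 than in Control (-0.84, SE 0.13, edgeR adjusted p = 0.000619). Col27a1, a minor fibrillar collagen, measured 18.4, 17.1 and 15.8 CPM in APX3330, 26.1, 25.7 and 24.8 in saline D27, 30.8, 30.6 and 26.3 in saline D48 and 14.7, 21.1 and 22.9 in saline D100, against 29.1, 23.7 and 22.4 in Control libraries. APX3330 libraries were below all saline D27 and saline D48 libraries. It fell with APX3330 against saline D48 (log2 fold change -0.78, SE 0.15, edgeR adjusted p = 0.00306).

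The remaining fibrillar members were scarce. Col11a1, a type XI chain known from cartilage, measured 1.22, 1.67 and 1.47 CPM in APX3330, 1.84, 1.17 and 2.48 in saline D27, 1.59, 1.33 and 0.987 in saline D48 and 1.20, 0.513 and 0.602 in saline D100, against 2.96, 3.14 and 2.00 in Control libraries. It was lowest at saline D100, where it did not overlap with Control (log2 fold change -1.80, SE 0.41, edgeR adjusted p = 0.00534). Col11a2, its partner chain, ranged from 2.86 to 8.54 CPM over all libraries and was higher at saline D48 than in Control (log2 fold change 1.11, SE 0.30, edgeR adjusted p = 0.0117, call lost without Control replicate 3, at 1.01). Col24a1 ranged from 1.00 to 4.37 CPM and was called in no comparison.

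Among the basement membrane collagens, Col4a1, Col4a2, Col15a1 and Col18a1 rose at day 48, while Col4a5 and Col4a6, encoded on chromosome X, were lower than in Control at day 27, at day 100 and with APX3330. Of the 8 tested, 4 were higher and 1 lower at saline D48 than in Control (backgrounds 14.3% and 13%). Lower calls against Control numbered 4 with APX3330 (background 8.18%) and 5 at saline D100 (background 10.5%). APX3330 against saline D48 gave 4 lower (background 10.3%).

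Col4a1, a chain of the common type IV network, measured 312, 263 and 329.7 CPM in APX3330, 405, 346 and 404 in saline D27, 594, 588 and 575 in saline D48 and 284, 316 and 301 in saline D100, against 365, 412 and 362 in Control libraries. Every saline D48 library exceeded every other library, with a group SD of 1.71% of the mean. Col4a1 rose at saline D48 against Control (log2 fold change 0.63, SE 0.10, edgeR adjusted p = 0.000447) and fell with APX3330 against saline D48 (-0.96, SE 0.10, edgeR adjusted p = 5.13e-05). The smaller fall with APX3330 against Control was less stable (-0.33, SE 0.10, edgeR adjusted p = 0.0379, call lost without APX3330 replicate 1 or 2, saline D100 replicate 3 or Control replicate 1, 2 or 3, at -0.36 to -0.24).

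Col4a2, the partner chain, measured 221, 197 and 215 CPM in APX3330, 298, 277 and 300.4 in saline D27, 437, 436 and 378 in saline D48 and 231, 224 and 229 in saline D100, against 302, 305 and 292 in Control libraries. It was highest at saline D48 and lowest in APX3330, whose libraries did not overlap with saline D100. It fell with APX3330 against saline D48 (log2 fold change -0.98, SE 0.085, edgeR adjusted p = 1.65e-05), against Control (-0.51, SE 0.084, edgeR adjusted p = 0.00119) and against saline D27 (-0.47, SE 0.084, edgeR adjusted p = 0.0075). Per length the level of Col4a1 was 1.39 ± 0.0973 times that of Col4a2 in APX3330, 1.38 ± 0.0943 in saline D48 and 1.23 ± 0.0710 in Control (SD, n = 3 each). Over the 15 libraries this ratio of the head-to-head pair ran from 1.18 to 1.495.

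Col18a1, the core protein of a basement membrane proteoglycan and source of the fragment endostatin, measured 64.8, 58.4 and 74.2 CPM in APX3330, 92.8, 84.8 and 79.8 in saline D27, 176, 193 and 169 in saline D48 and 84.4, 78.0 and 83.8 in saline D100, against 79.6, 84.9 and 76.1 in Control libraries. Its saline D48 libraries stood far above all others, and APX3330 libraries lay just below the rest. Against Control the rise at saline D48 was 2.23-fold (log2 fold change 1.16, SE 0.10, edgeR adjusted p = 6.85e-06). Against saline D48, APX3330 libraries held 0.368 times the level (log2 fold change -1.44, SE 0.10, edgeR adjusted p = 2.65e-06) and saline D100 libraries 0.458 times (-1.12, SE 0.10, edgeR adjusted p = 4.09e-05).

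Col15a1, a related chain of vessel and muscle basement membranes, measured 75.5, 73.5 and 59.8 CPM in APX3330, 76.4, 65.7 and 62.7 in saline D27, 113, 111 and 90.3 in saline D48 and 64.9, 76.4 and 75.5 in saline D100, against 81.8, 74.3 and 77.8 in Control libraries. Saline D48 was again above every other library. It rose at saline D48 against Control (log2 fold change 0.42, SE 0.11, edgeR adjusted p = 0.0121, call lost without saline D48 replicate 1 or 2, at 0.34 to 0.38) and was lower with APX3330 than at saline D48 (-0.59, SE 0.11, edgeR adjusted p = 0.00279). Per length, the level of Col18a1 relative to Col15a1 was 0.891 ± 0.223 in APX3330, 1.59 ± 0.144 in saline D48 and 0.953 ± 0.0884 in Control (SD, n = 3 each).

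The paired chromosome X genes had another course. Col4a6 measured 8.85, 9.80 and 9.78 CPM in APX3330, 11.9, 11.2 and 10.6 in saline D27, 19.3, 10.9 and 8.88 in saline D48 and 11.7, 7.82 and 12.0 in saline D100, against 21.9, 21.4 and 17.2 in Control libraries. Its neighbour Col4a5, singled out after its values were seen, measured 14.9, 18.8 and 17.6 CPM in APX3330, 25.2, 21.8 and 24.8 in saline D27, 31.9, 17.4 and 22.9 in saline D48 and 22.1, 16.1 and 19.5 in saline D100, against 42.6, 42.4 and 34.0 in Control libraries. Both were highest in Control, and APX3330, saline D27 and saline D100 libraries did not overlap with Control in either. Col4a5 was lower than Control with APX3330 (log2 fold change -1.21, SE 0.19, edgeR adjusted p = 0.00079), at saline D48 (-0.72, SE 0.19, edgeR adjusted p = 0.00962) and at saline D100 (-1.04, SE 0.19, edgeR adjusted p = 0.00115). Its saline D48 call was not made without both libraries holding pancreas transcripts, nor without the 3 libraries holding squamous transcripts. Saline D48 replicate 1, which holds few pancreas transcripts, was the saline D48 library nearest to Control. Col4a6 was lower with APX3330 (log2 fold change -1.09, SE 0.24, edgeR adjusted p = 0.00739) and at saline D100 (-0.94, SE 0.24, edgeR adjusted p = 0.011, call lost without saline D100 replicate 2, at -0.76), and its value at saline D48 was -0.63, SE 0.24, edgeR adjusted p = 0.0597, not called. In smooth muscle basement membranes these chains are known to form a network of their own. The 10 smooth muscle markers summed to 4791 to 6307 CPM in APX3330, 8149 to 10930 in saline D27, 5529 to 6601 in saline D48 and 5722 to 7489 in saline D100, against 11150 to 11460 in Control, and their part in this result was not tested.

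Col4a3 and Col4a4, the chains of the kidney glomerulus, stayed at 0.256 to 2.70 CPM. Col4a4 measured 1.49, 0.400 and 0.469 CPM in APX3330, 0.948, 0.551 and 0.868 in saline D27, 0.662, 1.00 and 0.465 in saline D48 and 0.353, 0.321 and 0.452 in saline D100, against 2.70, 1.39 and 1.60 in Control libraries. It was lower at saline D100 than in Control (log2 fold change -2.32, SE 0.55, edgeR adjusted p = 0.00742). Col4a3 was called in no comparison.

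In type VI collagen, the less abundant chains Col6a4 and Col6a5 were higher than in Control at all 3 saline days. At saline D27 neither call was made without the 3 libraries holding squamous transcripts. Of the common chains Col6a1, Col6a2 and Col6a3, only Col6a2 was called higher than in Control, at saline D48. With APX3330, Col6a1, Col6a2, Col6a3 and Col6a4 were all lower than at saline D48. Col6a6 was too scarce to test. Of the 5 tested, 2 were higher at saline D27 (background 10.2%), 3 at saline D48 (background 14.3%) and 2 at saline D100 (background 11.4%) than in Control, and 4 were lower with APX3330 than at saline D48 (background 10.3%).

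Col6a1 measured 299, 246 and 268 CPM in APX3330, 350.4, 299 and 276 in saline D27, 411, 408 and 323 in saline D48 and 271, 313 and 301 in saline D100, against 363, 373 and 366 in Control libraries. Col6a2 measured 256, 205 and 245 CPM in APX3330, 315, 278 and 253 in saline D27, 396, 378 and 314 in saline D48 and 239, 272 and 259 in saline D100, against 278, 308 and 284 in Control libraries. Col6a3 measured 175, 141 and 173 CPM in APX3330, 218, 197 and 226 in saline D27, 293, 256 and 247 in saline D48 and 176, 175 and 171 in saline D100, against 241, 265 and 229.6 in Control libraries. All were lowest in APX3330 by their group means, and saline D48 overlapped with Control in Col6a1 and Col6a3. APX3330 against saline D48 gave -0.49, SE 0.12, edgeR adjusted p = 0.00913 for Col6a1, -0.63, SE 0.12, edgeR adjusted p = 0.00194 for Col6a2 and -0.70, SE 0.10, edgeR adjusted p = 0.000521 for Col6a3 on the log2 scale. Against Control, Col6a3 was lower with APX3330 (log2 fold change -0.59, SE 0.10, edgeR adjusted p = 0.00162), and Col6a2 was higher at saline D48 (log2 fold change 0.32, SE 0.11, edgeR adjusted p = 0.0482, call lost in the 10 fits without 1 library other than APX3330 replicates 1 and 2, saline D27 replicates 1 and 3 and saline D48 replicate 3, at 0.23 to 0.37).

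Col6a4, an alternative to Col6a3 in type VI, measured 15.5, 12.9 and 13.9 CPM in APX3330, 20.3, 15.6 and 14.2 in saline D27, 30.2, 27.9 and 32.1 in saline D48 and 22.0, 25.6 and 21.3 in saline D100, against 6.69, 12.1 and 9.98 in Control libraries. Every saline and APX3330 library exceeded every Control library. It rose against Control at saline D48 (log2 fold change 1.65, SE 0.19, edgeR adjusted p = 4.54e-05), saline D100 (1.27, SE 0.19, edgeR adjusted p = 0.000282) and saline D27 (0.81, SE 0.19, edgeR adjusted p = 0.00824). The APX3330 value against Control was 0.56, SE 0.19, edgeR adjusted p = 0.0571, not called, and against saline D48 it was lower (log2 fold change -1.09, SE 0.18, edgeR adjusted p = 0.00121).

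Col6a5, a further alternative chain, measured 12.0, 9.87 and 12.3 CPM in APX3330, 11.9, 8.26 and 10.7 in saline D27, 15.2, 15.2 and 10.5 in saline D48 and 16.9, 21.2 and 22.6 in saline D100, against 2.64, 5.55 and 4.59 in Control libraries. Control libraries were the lowest and saline D100 libraries the highest, with no overlap between saline D100 and any other group. It rose against Control with APX3330 (log2 fold change 1.42, SE 0.25, edgeR adjusted p = 0.00161) and at saline D100 (2.25, SE 0.25, edgeR adjusted p = 2.6e-05). At saline D48 the value was 1.68, SE 0.25, edgeR adjusted p = 0.000235 and at saline D27 1.28, SE 0.25, edgeR adjusted p = 0.00272. The calls with APX3330 and at saline D27 were not made without the libraries holding squamous transcripts. As folds, saline D100 held 4.76 times and APX3330 2.67 times the Control level. Against saline D100, APX3330 had a log2 fold change of -0.83, 95% interval -1.33 to -0.34, which was not called in edgeR but was in DESeq2.

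Per length, Col6a4 amounted to 0.119 ± 0.00843 of the Col6a3 level in APX3330, 0.156 ± 0.0193 in saline D48 and 0.181 ± 0.0170 in saline D100, against 0.0533 ± 0.0133 in Control. The corresponding ratio of Col6a5 to Col6a3 was 0.0759 ± 0.00144 in APX3330, 0.0557 ± 0.00923 in saline D48 and 0.127 ± 0.0202 in saline D100, against 0.0188 ± 0.00600 in Control (SD, n = 3 each). In both ratios the Control libraries lay below all others.

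**Figure D4:**
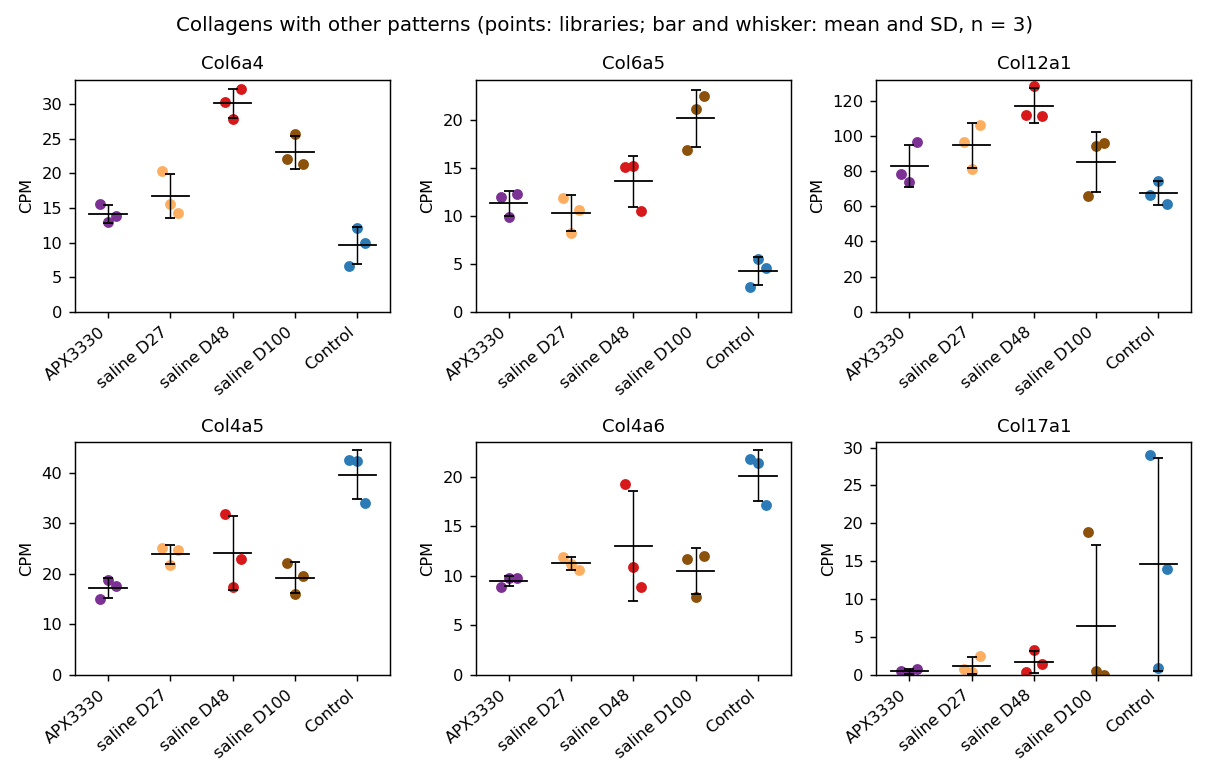
Level in CPM (vertical axis, from 0) of Col6a4, Col6a5, Col12a1, Col4a5, Col4a6 and Col17a1 in each library by group, with points for libraries, bars for means and whiskers for the SD of 3. Control is lowest for Col6a4 (6.69 to 12.1 CPM) and Col6a5 (2.64 to 5.55 CPM) and highest for Col4a5 and Col4a6, and Col17a1 is carried by Control replicates 1 and 3 and saline D100 replicate 1.

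The collagens that sit on the surface of fibrils went different ways. Of the 7 tested, 2 were lower with APX3330 (background 8.18%), 2 higher at saline D48 (background 14.3%) and 3 lower at saline D100 (background 10.5%) than in Control. Col12a1, which binds type I fibrils and is found in tissue under tension, measured 78.6, 73.8 and 96.5 CPM in APX3330, 96.6, 81.0 and 106 in saline D27, 112, 129 and 111 in saline D48 and 65.6, 94.5 and 95.7 in saline D100, against 66.5, 74.6 and 61.2 in Control libraries. Saline D27 and saline D48 libraries were all above Control. It rose against Control at saline D48 (log2 fold change 0.80, SE 0.15, edgeR adjusted p = 0.00114) and saline D27 (0.49, SE 0.15, edgeR adjusted p = 0.0303, call lost without saline D27 replicate 1 or 3 or Control replicate 1 or 3, at 0.40 to 0.48). With APX3330 it was lower than at saline D48 (-0.50, SE 0.15, edgeR adjusted p = 0.0266, call lost without APX3330 replicate 1 or 2 or saline D48 replicate 1, 2 or 3, at -0.53 to -0.42).

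Col16a1, which links fibrils to other matrix, measured 71.3, 64.7 and 70.9 CPM in APX3330, 89.9, 87.2 and 86.6 in saline D27, 102, 89.0 and 78.6 in saline D48 and 60.0, 52.6 and 59.1 in saline D100, against 105, 96.5 and 83.7 in Control libraries. Saline D100 libraries were the lowest of all, and APX3330 libraries lay between them and the rest. It was lower at saline D100 than in Control (log2 fold change -0.73, SE 0.10, edgeR adjusted p = 0.000191) and than at saline D48 (-0.65, SE 0.10, edgeR adjusted p = 0.00126). With APX3330 it was lower than in Control (-0.46, SE 0.10, edgeR adjusted p = 0.00798).

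Col14a1, which binds fibrils in skin and tendon and in the gut wall, measured 61.8, 55.9 and 58.2 CPM in APX3330, 58.0, 46.1 and 60.2 in saline D27, 78.6, 58.0 and 55.6 in saline D48 and 58.6, 46.9 and 40.8 in saline D100, against 72.7, 83.8 and 80.6 in Control libraries. Control was highest, and saline D48 replicate 1 was the one other library above 70 CPM. It was lower at saline D100 than in Control (log2 fold change -0.70, SE 0.15, edgeR adjusted p = 0.00357), while the APX3330 value was -0.43, SE 0.15, edgeR adjusted p = 0.0588, not called. The level of Col12a1 per length relative to Col14a1 was 0.795 ± 0.118 in APX3330, 0.970 ± 0.0308 in saline D27, 1.05 ± 0.230 in saline D48 and 1.02 ± 0.357 in saline D100, against 0.479 ± 0.0466 in Control (SD, n = 3 each). Control libraries had the lowest values of this ratio.

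Col9a2 and Col9a3, chains of the cartilage type IX collagen, were scarce. Col9a2 measured 2.23, 2.33 and 0.871 CPM in APX3330, 2.68, 4.20 and 3.60 in saline D27, 3.84, 3.87 and 2.44 in saline D48 and 2.97, 1.79 and 1.96 in saline D100, against 5.34, 5.18 and 7.79 in Control libraries. Col9a3 measured 0.540, 1.40 and 0.871 CPM in APX3330, 2.40, 1.51 and 1.36 in saline D27, 1.72, 4.80 and 2.27 in saline D48 and 1.70, 0.962 and 1.35 in saline D100, against 0.515, 0.876 and 0.865 in Control libraries. Col9a2 was highest and Col9a3 lowest in Control by their means. Col9a2 was lower than Control with APX3330 (log2 fold change -1.75, SE 0.36, edgeR adjusted p = 0.00468), and Col9a3 was higher at saline D48 (log2 fold change 1.95, SE 0.47, edgeR adjusted p = 0.00671). The Col9a3 call was not made without both libraries holding pancreas transcripts. Col20a1 measured 7.57, 6.87 and 8.84 CPM in APX3330, 9.59, 6.61 and 8.06 in saline D27, 8.60, 7.40 and 9.99 in saline D48 and 3.75, 5.58 and 8.20 in saline D100, against 8.23, 7.67 and 6.12 in Control libraries, with overlap between all groups and no call. Col22a1 ranged from 0.200 to 1.67 CPM and had no call.

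The short-chain network collagens Col8a1 and Col8a2 form the type VIII network of vessel walls. Col8a1 measured 19.3, 16.0 and 22.0 CPM in APX3330, 12.6, 10.2 and 23.6 in saline D27, 17.3, 13.9 and 9.46 in saline D48 and 13.1, 13.9 and 21.3 in saline D100, against 23.4, 29.9 and 24.2 in Control libraries. Col8a2 measured 6.15, 5.13 and 5.49 CPM in APX3330, 7.08, 6.13 and 7.07 in saline D27, 5.36, 5.40 and 2.90 in saline D48 and 2.90, 4.81 and 4.82 in saline D100, against 7.98, 7.45 and 8.52 in Control libraries. Control libraries were highest by mean in both, and saline D48 libraries did not overlap with them. At saline D48 Col8a1 was lower than in Control (log2 fold change -0.93, SE 0.29, edgeR adjusted p = 0.0238, call lost without saline D48 replicate 2 or 3 or Control replicate 2, at -0.96 to -0.73). Col8a2 was lower there too (log2 fold change -0.81, SE 0.25, edgeR adjusted p = 0.0258, call lost without saline D48 replicate 3 or Control replicate 1 or 3, at -0.81 to -0.57).

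Col7a1, the anchoring fibril of stratified epithelium, measured 5.13, 5.53 and 4.22 CPM in APX3330, 4.74, 5.16 and 4.03 in saline D27, 5.82, 26.9 and 9.99 in saline D48 and 9.89, 3.52 and 3.91 in saline D100, against 9.91, 3.87 and 8.85 in Control libraries. A single library, saline D48 replicate 2, was far above the rest. Its squamous marker sum was 100 CPM, against 7.20 and 7.87 CPM in the other saline D48 libraries. The call for APX3330 against saline D48 (log2 fold change -1.52, SE 0.50, edgeR adjusted p = 0.0434, call lost in the 10 fits without 1 library other than saline D48 replicate 1, saline D100 replicates 1 and 2 and Control replicates 1 and 2, at -1.71 to -0.69) was lost without that library. No other comparison called Col7a1.

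Col17a1, a membrane collagen of hemidesmosomes in stratified epithelium, measured 0.473, 0.0667 and 0.737 CPM in APX3330, 0.725, 0.344 and 2.48 in saline D27, 0.397, 3.27 and 1.39 in saline D48 and 18.8, 0.449 and 0 in saline D100, against 29.0, 0.876 and 13.9 in Control libraries. High values were confined to Control replicates 1 and 3 and saline D100 replicate 1 among the 15 libraries, which are the libraries with high squamous markers, and saline D100 replicate 3 had no count. The call for APX3330 against Control (log2 fold change -5.08, SE 1.59, edgeR adjusted p = 0.0419, call lost without APX3330 replicate 1, 2 or 3, saline D27 replicate 1 or 2 or Control replicate 1 or 3, at -5.72 to -4.10) rests on those Control libraries, and it was not made without the 3 libraries holding squamous transcripts.

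Of the other membrane collagens, Col23a1 measured 11.1, 9.54 and 10.5 CPM in APX3330, 14.1, 13.8 and 11.2 in saline D27, 13.2, 12.5 and 9.87 in saline D48 and 12.9, 12.9 and 13.8 in saline D100, against 11.2, 7.67 and 10.1 in Control libraries. Col13a1 measured 3.51, 2.00 and 3.08 CPM in APX3330, 3.90, 5.16 and 4.40 in saline D27, 3.77, 3.27 and 3.02 in saline D48 and 3.39, 3.33 and 3.24 in saline D100, against 3.67, 2.56 and 1.80 in Control libraries. Saline D100 lay above Control in Col23a1 and saline D27 did so in Col13a1, while the other groups overlapped with Control, and neither gene was called in any comparison. Col25a1, known as a collagen of neurons and muscle, measured 0.811, 0.533 and 0.871 CPM in APX3330, 1.28, 1.10 and 1.68 in saline D27, 0.463, 0.400 and 0.290 in saline D48 and 1.27, 1.15 and 1.28 in saline D100, against 0.450, 1.31 and 1.20 in Control libraries. Saline D48 libraries were the lowest by mean, but Control replicate 1 lay within their range. Its call against Control at saline D48 was unstable (log2 fold change -1.34, SE 0.47, edgeR adjusted p = 0.0442, call lost in the 13 fits without 1 library other than APX3330 replicate 2 and Control replicate 1, at -1.52 to -1.09), and saline D100 exceeded saline D48 (1.67, SE 0.46, edgeR adjusted p = 0.0268, call lost without saline D48 replicate 1, 2 or 3 or saline D100 replicate 1, 2 or 3, at 1.49 to 1.82).

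Col28a1, a collagen of peripheral nerve sheaths, measured 4.66, 3.67 and 4.49 CPM in APX3330, 5.19, 6.40 and 8.81 in saline D27, 5.03, 5.26 and 4.07 in saline D48 and 4.45, 3.85 and 4.37 in saline D100, against 9.26, 7.82 and 6.92 in Control libraries. APX3330, saline D48 and saline D100 libraries were all below Control. It was lower at saline D100 than in Control (log2 fold change -0.92, SE 0.23, edgeR adjusted p = 0.00938) and with APX3330 (-0.90, SE 0.23, edgeR adjusted p = 0.0152, call lost without APX3330 replicate 2 or Control replicate 1, at -0.80 to -0.78). The 5 glia markers summed to 11.6 to 16.6 CPM in APX3330, 13.3 to 14.3 in saline D100 and 27.5 to 29.6 in Control, and their part in this was not tested.

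The 95% interval, which is not adjusted for the number of genes, gives the range of differences between APX3330 and saline D100 that these libraries allow. For Col1a1 the log2 fold change of APX3330 against saline D100 was 0.026, 95% interval -0.20 to 0.25. For Col3a1 it was -0.086, 95% interval -0.34 to 0.16, and for Col4a1 0.0072, 95% interval -0.21 to 0.22. The interval of Col18a1 did not reach 0 (-0.32, 95% interval -0.52 to -0.11), nor did that of Col6a4 (-0.70, 95% interval -1.10 to -0.31), although neither passed the adjusted threshold in edgeR.

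Genes that make, process and bind collagen were tested in the same fit, and backgrounds are again shares of all genes tested. Their calls were made with all libraries kept and need not hold without the squamous or pancreas libraries. Chain modification and folding had 21 tested enzymes and chaperones. At saline D48, 10 were higher and 1 lower than in Control (backgrounds 14.3% and 13%). With APX3330, 7 were lower than at saline D48 (background 10.3%). The median log2 fold change was 0.36 in the first comparison and -0.32 in the second. In sum the list came to 2128, 2364 and 1974 CPM in saline D48, 2016, 1910 and 1991 in APX3330 and 1464, 1550 and 1545 in Control libraries. Saline D48 replicates 2 and 3 hold pancreas transcripts, and their part in these list counts was not tested. Serpinh1, the collagen-specific chaperone HSP47, measured 139, 120.3 and 107 CPM in APX3330, 154, 166 and 167 in saline D27, 259, 298 and 297 in saline D48 and 121, 135 and 105 in saline D100, against 150.3, 179 and 160.0 in Control libraries. Its saline D48 libraries lay above all others, like those of Col1a1. It rose at saline D48 against Control (log2 fold change 0.80, SE 0.11, edgeR adjusted p = 0.000192) and was lower with APX3330 than at saline D48 (-1.22, SE 0.12, edgeR adjusted p = 3.08e-05). Plod1, a lysyl hydroxylase, was also lower with APX3330 than at saline D48 (log2 fold change -0.74, SE 0.11, edgeR adjusted p = 0.000539).

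Other genes of this list went another way. P4hb, the shared subunit of prolyl hydroxylase and a general folding enzyme, averaged 901 ± 66.6 CPM in APX3330, 858 ± 106 in saline D27, 829 ± 165 in saline D48 and 983 ± 8.94 in saline D100, against 572 ± 36.8 in Control (SD, n = 3 each). It was higher than Control in all 4 groups, with APX3330 at 0.65, SE 0.13, edgeR adjusted p = 0.00316. Mia3, which loads procollagen into export vesicles, averaged 233 ± 11.8 CPM in APX3330 and 259 ± 32.6 in saline D100, against 158 ± 9.14 in Control. It was higher with APX3330 (log2 fold change 0.56, SE 0.10, edgeR adjusted p = 0.00177) and at saline D100 (0.71, SE 0.10, edgeR adjusted p = 0.000164).

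Of the 12 tested genes of propeptide processing and crosslinking, 9 were lower with APX3330 than at saline D48 (background 10.3%). The median log2 fold change was -0.80. At saline D100, 6 were lower and 1 higher than in Control (backgrounds 10.5% and 11.4%). Bmp1, the procollagen C-proteinase, measured 36.0, 27.2 and 29.9 CPM in APX3330, 47.2, 41.5 and 39.7 in saline D27, 60.9, 69.8 and 61.3 in saline D48 and 35.8, 33.0 and 27.8 in saline D100, against 60.1, 54.9 and 58.7 in Control libraries. APX3330 and saline D100 libraries were low and did not overlap with the other groups. Bmp1 was lower with APX3330 than at saline D48 (log2 fold change -1.04, SE 0.12, edgeR adjusted p = 9.62e-05) and than in Control (-0.90, SE 0.12, edgeR adjusted p = 0.000258). On the same scale APX3330 against saline D48 gave -0.83, SE 0.10, edgeR adjusted p = 0.000133 for the crosslinking enzyme Loxl1. It gave -0.57, SE 0.11, edgeR adjusted p = 0.00286 for Adamts2, the N-proteinase of types I and III. For Pcolce, which enhances Bmp1, it gave -0.65, SE 0.10, edgeR adjusted p = 0.000804.

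Among the 14 matrix proteins that bind fibrils, 9 were lower at saline D100 than in Control (background 10.5%) and 7 with APX3330 (background 8.18%). In each group 1 was higher (backgrounds 11.4% and 7.16%). Sparc, a collagen-binding protein of fibroblasts and vessels, averaged 227 ± 25.3 CPM in APX3330, 322 ± 29.5 in saline D27, 432 ± 15.9 in saline D48 and 216 ± 10.6 in saline D100, against 436 ± 32.5 in Control (SD, n = 3 each). It was lower with APX3330 than in Control (log2 fold change -0.94, SE 0.10, edgeR adjusted p = 6.28e-05) and than at saline D27 (-0.51, SE 0.10, edgeR adjusted p = 0.0105). Thbs2, a matricellular regulator of fibril assembly, was lower with APX3330 than in Control (log2 fold change -0.91, SE 0.16, edgeR adjusted p = 0.00177). Bgn, the proteoglycan biglycan, was higher at saline D48 than in Control (log2 fold change 0.58, SE 0.11, edgeR adjusted p = 0.00138), and Thbs1, which activates TGF-beta, was higher than Control with APX3330 (log2 fold change 0.92, SE 0.19, edgeR adjusted p = 0.00436) and at saline D48 (1.31, SE 0.19, edgeR adjusted p = 0.000218).

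The partners of type IV collagen in the basement membrane were lower in 12 of 16 genes with APX3330 than at saline D48 (background 10.3%). At saline D100, 10 of 16 were lower than at saline D48 (background 6.4%). Lama1, a laminin chain of embryonic and some epithelial basement membranes, averaged 6.16 ± 2.29 CPM in APX3330, 20.0 ± 1.86 in saline D48 and 3.55 ± 0.808 in Control (SD, n = 3 each). It rose at saline D48 against Control (log2 fold change 2.50, SE 0.27, edgeR adjusted p = 3.2e-05) and was lower with APX3330 than at saline D48 (-1.70, SE 0.26, edgeR adjusted p = 0.000701). Nid1, which joins laminin to type IV collagen, was lower with APX3330 than in Control (log2 fold change -0.67, SE 0.094, edgeR adjusted p = 0.000349). Pxdn, the peroxidase that crosslinks type IV collagen, had -0.62, SE 0.10, edgeR adjusted p = 0.00131 on the log2 scale in that comparison.

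Of the 6 collagen breakdown genes tested, 4 were higher at saline D48 than in Control (background 14.3%) and 2 than at saline D27 (background 0.854%). With APX3330, 4 were lower than at saline D48 (background 10.3%). Mmp2, a gelatinase of stromal cells, measured 45.1, 45.7 and 51.8 CPM in APX3330, 54.4, 47.2 and 39.4 in saline D27, 91.2, 105 and 86.5 in saline D48 and 52.3, 45.2 and 51.9 in saline D100, against 64.6, 75.4 and 64.2 in Control libraries. Saline D48 libraries exceeded all others. It was lower with APX3330 than at saline D48 (log2 fold change -0.98, SE 0.12, edgeR adjusted p = 0.000136) and higher at saline D48 than at saline D27 (1.00, SE 0.12, edgeR adjusted p = 0.00199). Mmp9, the gelatinase of leukocytes, averaged 2.95 ± 0.753 CPM in APX3330, 10.3 ± 1.04 in saline D48 and 1.92 ± 0.657 in Control, with a rise at saline D48 against Control (log2 fold change 2.42, SE 0.36, edgeR adjusted p = 0.000263). Ctsk, a lysosomal protease, had -1.39, SE 0.25, edgeR adjusted p = 0.00188 and Mmp14, a membrane collagenase, had -0.51, SE 0.10, edgeR adjusted p = 0.00317 for APX3330 against saline D48 on the log2 scale.

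Of the 10 collagen receptors, 3 were higher and 1 lower at saline D48 than in Control (backgrounds 14.3% and 13%). With APX3330, 2 were lower than at saline D48 (background 10.3%). Mrc2, an uptake receptor for cleaved collagen, was lower with APX3330 than at saline D48 (log2 fold change -1.05, SE 0.14, edgeR adjusted p = 0.000335), and so was Ddr1, a receptor kinase of epithelium (-0.58, SE 0.12, edgeR adjusted p = 0.00321). Itga2, the collagen-binding integrin chain of epithelium, was higher than Control with APX3330 (log2 fold change 0.87, SE 0.20, edgeR adjusted p = 0.00963). Lair1, an inhibitory collagen receptor of leukocytes, was higher than Control at saline D100 (log2 fold change 1.55, SE 0.32, edgeR adjusted p = 0.00319).

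The TGF-beta list, whose ligands are known inducers of type I collagen, showed no common direction. At saline D48, 3 of 12 were higher and 5 lower than in Control (backgrounds 14.3% and 13%). Tgfbr2, the type II receptor, was higher at saline D48 than in Control (log2 fold change 0.34, SE 0.084, edgeR adjusted p = 0.00714). Ccn2, a target of the pathway, averaged 22.3 ± 2.44 CPM in APX3330, 35.6 ± 5.17 in saline D27, 21.02 ± 2.28 in saline D48 and 23.0 ± 5.46 in saline D100, against 31.2 ± 3.89 in Control (SD, n = 3 each). Of the signal transducers, Smad4 was lower than Control at saline D27 (log2 fold change -0.80, SE 0.11, edgeR adjusted p = 0.000237) and Smad2 also (-0.74, SE 0.12, edgeR adjusted p = 0.000801).

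Markers of collagen-producing and other cells moved with part of these results. Over all genes tested, lower calls against Control were 8.18% with APX3330, 9.36% at saline D27, 13% at saline D48 and 10.5% at saline D100. Higher calls against Control were 10.2% at saline D27, 14.3% at saline D48 and 11.4% at saline D100. Lower calls with APX3330 were 10.3% against saline D48 and 4.37% against saline D27. The 10 fibroblast markers summed to 1004, 899 and 783 CPM in APX3330, 1166, 857 and 1089 in saline D27, 1328, 1301 and 1485 in saline D48 and 1016, 952 and 848 in saline D100, against 1368, 1331 and 1341 in Control libraries. Saline D48 and Control were both above the other groups, with 7 of 10 lower with APX3330 than in Control and 6 of 10 lower with APX3330 than at saline D48. At saline D48, 3 of the 10 were higher and 2 lower than in Control. The 9 endothelium markers summed to 364, 277 and 289.6 CPM in APX3330, 292, 276 and 255 in saline D27, 357, 383 and 418 in saline D48 and 278, 313 and 254 in saline D100, against 292, 258 and 278 in Control libraries. Of these 9, 6 were higher at saline D48 than in Control and 5 lower with APX3330 than at saline D48. Of the 10 smooth muscle markers, 9 were lower than in Control with APX3330, 8 at saline D48 and 9 at saline D100, and 9 were lower with APX3330 than at saline D27. Of the 5 pericyte markers, 4 were lower with APX3330 than at saline D48. Skeletal muscle markers, high in Control replicates 1 and 3 (1904 and 853 CPM in sum), were lower than in Control in 9 of 9 with APX3330, 9 at saline D27, 9 at saline D48 and 8 at saline D100. Of the 8 adipocyte markers, 7 were lower with APX3330 than at saline D27 and 6 than at saline D48, with sums of 22.4 to 44.9 CPM in APX3330, 65.3 to 184 in saline D27 and 63.8 to 92.5 in saline D48. Of the 9 leukocyte markers, 6 were higher than in Control at saline D27, 7 at saline D48 and 6 at saline D100, and 5 were lower with APX3330 than at saline D48. The 4 mesothelium markers were higher than in Control in 3 at saline D27 and 3 at saline D48. All markers of these lists were detected. The part of these cell types in the collagen results was not tested.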

How the data were processed

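The data are 15 RNA-seq libraries of mouse colon. Per the labels' protocols, RNA was purified on columns and a SMARTER kit was used for library preparation. The authors deposited raw read counts per gene, and GRCm38 and mm10 are named as genome builds in the submitters' processing notes. Which aligner, counter, annotation and strand setting were used is not given in the sources here. The group of each library came from its label. The members and lists were chosen with earlier results of these data known.

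Genes were filtered with edgeR's filterByExpr (edgeR 4.0.16, R 4.3.3), libraries were scaled by TMM, and a quasi-likelihood model with 1 mean per group was fitted to all 15 libraries. P-values were adjusted by the Benjamini-Hochberg method over all 18038 genes tested, with a threshold of 0.05, and intervals are 95% intervals of the log2 fold change. The model was tested on simulated data. Coordinates and transcript lengths came from GENCODE M21, and promoters were taken from RefSeq. Alternatives were DESeq2 1.42.0 (size factors and test), limma-voom 3.58.1 with quality weights, no filter, only the compared groups, a replicate block, and fits without single libraries or without those holding squamous or pancreas transcripts. The named members are the 4 most abundant of each class and the 3 with the largest called fold change in each comparison, and of each pathway list the 4 with the smallest F test p-value, of which 1 is not reported here. Col4a3, Col4a5, Col11a2, Col22a1 and Col24a1 fall outside this rule and were named to account for all tested members. Libraries of a group differed by more than sampling noise in every pair (chi-square per gene of 9.85 to 80.9). With 3 libraries against 3, depth limits the scarce members most.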

Additional observations from a re-analysis of the deposited data

How the results depend on the processing

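No direction reversed under any alternative, and DESeq2's size factors kept all 259 calls of named collagens and pathway genes. The DESeq2 test lost 1 of them, limma-voom 4, the fit without a filter 13, the replicate block 14, the fits of only the compared groups 46 of 258, the fit without pancreas libraries 63 and that without squamous libraries 122. Of the 126 collagen calls, 73 held in all 15 fits that left out 1 library.

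The count of collagens called moved by over 1.5 times in these cases, and where no smaller number of libraries or genes shows the cause, the cause was not tested. For saline D27 against Control it was 17 by limma-voom and 1 without squamous libraries, against 11. For saline D48 against Control it was 3 without squamous and 7 without pancreas libraries, against 17. Without squamous libraries it was 11 for saline D100 against Control (20 with all), 8 for APX3330 against Control (18 with all) and 3 for APX3330 against saline D27 (10 with all), where the fit of only those groups gave 2. APX3330 against saline D100 gave 3 without a filter and 2 by DESeq2, against 0. Saline D48 against saline D27 gave 3 without pancreas libraries and 2 with only those groups, against 10. Saline D100 against saline D27 gave 7 by DESeq2, 10 by limma-voom and 1 without squamous libraries, against 4.

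Leaving out 1 library gave 13 to 19 calls for APX3330 against Control, 1 to 10 against saline D27, 16 to 19 against saline D48 and 0 in every fit against saline D100. Against Control it gave 4 to 12 for saline D27, 12 to 18 for saline D48 and 18 to 21 for saline D100. It gave 3 to 11 for saline D48 against saline D27, 0 to 5 for saline D100 against saline D27, 13 to 17 for saline D100 against saline D48, and 25 to 30 for the F test.

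Same-numbered libraries correlated in their deviations at -0.14 to 0.255, over 0.1 in 2 of 30 pairs. Differently numbered libraries of different groups correlated at -0.325 to 0.206, over 0.1 in 4 of 60 pairs. With so few libraries per group, this cannot exclude that a replicate number marks a shared animal, litter or day. With a replicate block the counts were 17 for APX3330 against Control, 8 against saline D27, 18 against saline D48 and 0 against saline D100. Against Control the replicate block gave 11 for saline D27, 17 for saline D48 and 20 for saline D100, and between saline days it gave 8, 3 and 15 for day 48 against 27, day 100 against 27 and day 100 against 48. The F test gave 26 under the replicate block.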
